A study of Mus musculus with 21 samples.

Results

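The genes described here are the vascular growth factor Vegfa and a set of ligands and receptors that act with it on blood and lymph vessels, in the epididymal fat of mice on 7 diets. They are 9 of the 16248 genes measured: the ligands Vegfa, Pgf and Angpt1, the VEGF receptors Kdr, Flt1 and Flt4, the coreceptor Nrp2, and the TIE receptors Tek and Tie1. Each was found by its symbol in the platform annotation, and all 9 had a probe. Angpt1 had 2 probes, of which the brighter by its mean over all arrays was used, and the other 8 genes had 1 probe each. The set was selected on measured values: it was chosen by the differences between the high dose of fermented grain and the plain high-fat diet, which were known for Vegfa, Kdr and other members. That contrast is therefore given as a description, without p-values for the members, and no call in it is support.

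All mice were male C57BL/6J animals, 4 weeks old on arrival, with 1 week of acclimation followed by 12 weeks on the diet. Fat supplied 10% of the calories of the normal diet (ND) and 40% of those of the high-fat diet (HFD). The high-fat diet was also the base of every supplemented group: the bacterium Bacillus coagulans in BC, steamed grain in SMG and the low dose of fermented mixed grain in L_FMG, each at 0.3% of the weight, and the high dose of fermented mixed grain in H_FMG, at 0.9%. RMG is a code on the high-fat diet whose supplement and dose the labels leave undescribed. The protocol states 6 groups, where the labels hold 7. Each group had 3 arrays, called by the group code and title number, and nothing in the labels says how these mice were picked or that their RNA was not pooled, so the p-values measure the spread between these arrays.

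VEGF-A is made by adipocytes and other cells of fat and drives the growth and permeability of capillaries through KDR (VEGFR2), the main signalling receptor of blood endothelium. FLT1 (VEGFR1) binds VEGF-A tightly with weak signalling and so acts in part as a decoy, and it is also the receptor of PGF. FLT4 (VEGFR3) serves lymphatic endothelium and sprouting vessels, and NRP2 is a coreceptor for VEGF and semaphorin ligands. ANGPT1 from perivascular cells activates TEK (TIE2), which steadies mature vessels, and TIE1 is a related receptor without a well established ligand of its own that modulates TEK.

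Values are log2 levels, so a difference of 1 is a doubling. Array medians lay between 4.23 and 4.39 over all probes. ND array 9 stood apart, with a mean correlation of 0.976 with the other ND arrays, where the means within the other groups ran from 0.985 to 0.993. Markers of fat were bright (mean levels of 9.32 for Adipoq and 12.2 for Fabp4) and so was the endothelial marker Pecam1 (8.88), whereas 7 markers of the epididymal duct had mean levels between 1.95 and 4.76. The table was held in part: most genes of chromosomes 7, 8, 9 and X, and part of chromosome 6, were not analysed here, among them Vegfc, Vegfd, Nrp1 and Angpt2.

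Of the 9 genes, 8 had an entry in a table of promoter sequences from RefSeq (GRCm38.p6); Angpt1 had none. Because Vegfa, Kdr, Flt1 and Tie1 fell together in 1 comparison below, the 250 bases before the start of each are printed, all from the minus strand and written in the direction of the gene. For Vegfa, which has 2 windows in that table, the outermost start was used, and its window is chr17:46032378-46032627. The other windows are chr5:75978456-75978705 for Kdr, chr5:147726012-147726261 for Flt1 and chr4:118489850-118490099 for Tie1. Capitals mark matches, on either strand, to the hypoxia response core ACGTG or to AGGAAG, the core bound by ETS factors with its flanking bases.
Vegfa: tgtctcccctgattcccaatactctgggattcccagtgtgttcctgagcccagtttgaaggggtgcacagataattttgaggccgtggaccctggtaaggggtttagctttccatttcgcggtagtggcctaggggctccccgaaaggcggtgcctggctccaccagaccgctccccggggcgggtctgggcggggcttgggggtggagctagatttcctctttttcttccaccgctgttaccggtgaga
Kdr: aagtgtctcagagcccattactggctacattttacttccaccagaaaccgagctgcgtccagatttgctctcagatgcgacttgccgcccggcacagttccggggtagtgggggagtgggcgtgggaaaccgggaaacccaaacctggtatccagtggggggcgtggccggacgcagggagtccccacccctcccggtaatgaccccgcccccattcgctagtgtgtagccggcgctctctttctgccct
Flt1: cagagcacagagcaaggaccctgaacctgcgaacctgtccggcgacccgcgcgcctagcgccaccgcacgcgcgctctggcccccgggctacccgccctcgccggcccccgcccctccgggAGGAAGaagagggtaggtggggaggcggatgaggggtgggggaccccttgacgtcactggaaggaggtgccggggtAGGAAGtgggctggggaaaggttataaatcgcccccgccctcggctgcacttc
Tie1: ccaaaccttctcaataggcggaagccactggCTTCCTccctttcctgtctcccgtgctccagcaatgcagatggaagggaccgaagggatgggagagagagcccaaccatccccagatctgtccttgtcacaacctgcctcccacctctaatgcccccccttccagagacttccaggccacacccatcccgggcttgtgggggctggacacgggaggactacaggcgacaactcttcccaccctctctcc
In these windows the hypoxia core was found in 0 of the 8 genes, against 16.6% of 32851 promoter windows of the same length. AGGAAG was found in 2 of the 8: Flt1 had 2 matches, the first 129 bases before the start, and Tie1 had 1 on the opposite strand, 219 bases before the start. Its share over all windows was 29.5%. No match of one motif overlapped the other. The letters describe these windows only.

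**Figure D1:**
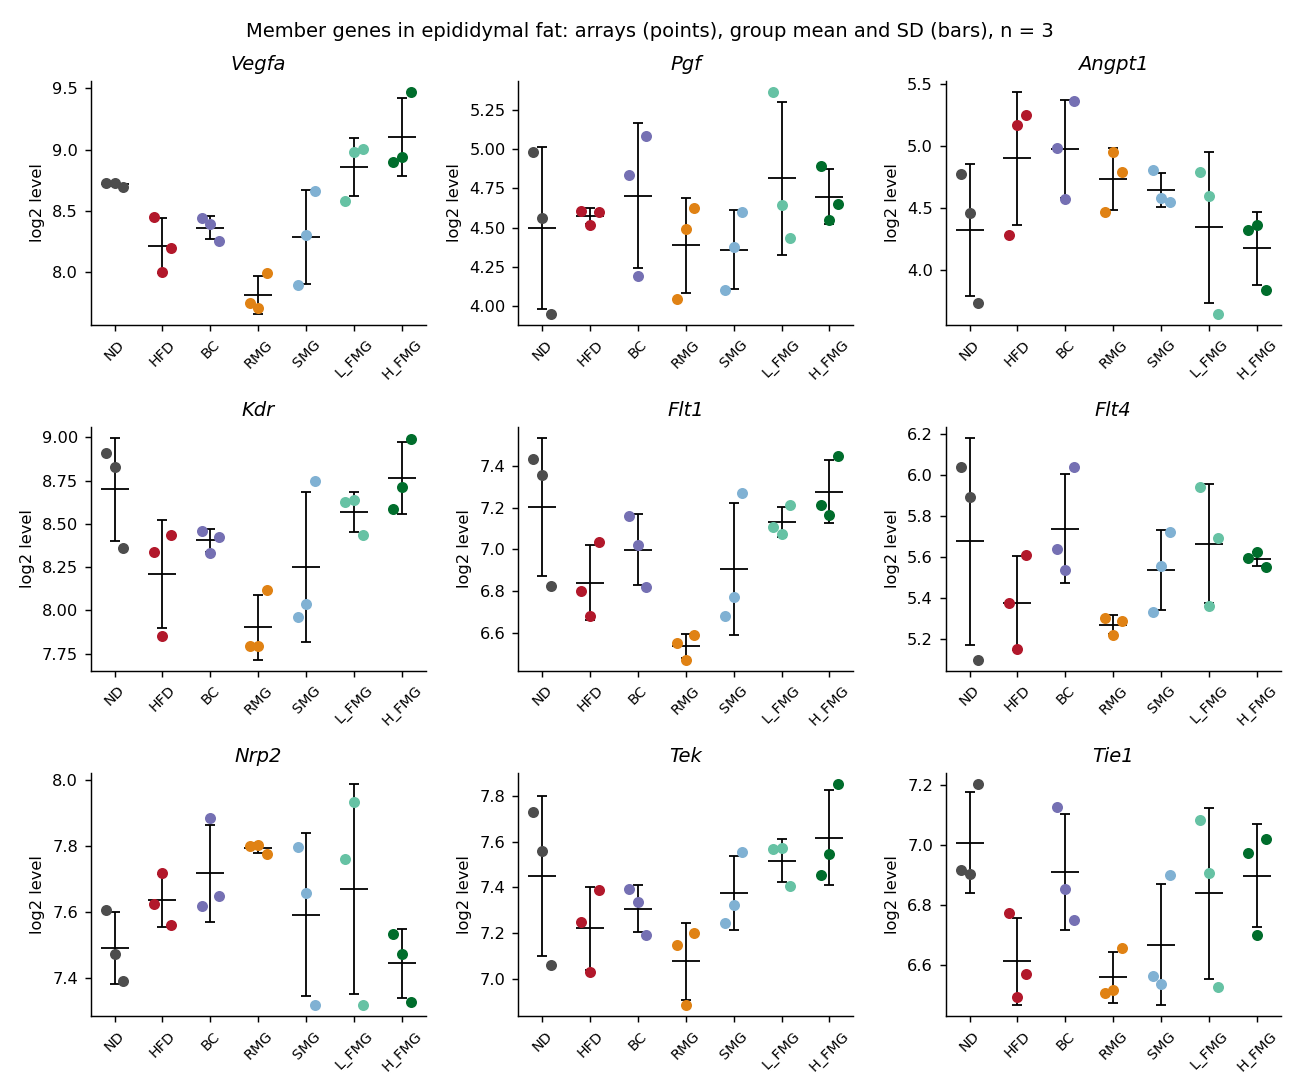
Log2 level of each of the 9 genes on every array, by diet group, with the group mean and SD (n = 3); each panel has its own vertical scale. Vegfa, Kdr, Flt1 and Tek have their highest group mean in H_FMG and their lowest in RMG, with Vegfa at 9.10 and 7.81.

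Vegfa was the member with the widest spread of group means, 1.29 log2 units between H_FMG and RMG. On the ND arrays it stood at 8.73, 8.72 and 8.70, on the HFD arrays at 8.445, 7.997 and 8.196, and on the RMG arrays at 7.75, 7.70 and 7.99. The HFD arrays thus lay below all ND arrays, and the RMG arrays below all HFD arrays. L_FMG had 8.582, 8.983 and 9.005, and H_FMG 8.90, 8.94 and 9.47, so that both groups lay above every HFD array. BC (8.44, 8.39 and 8.25) overlapped HFD, and SMG was the most scattered, at 7.89, 8.30 and 8.66. In descending order the group means were 9.10 ± 0.32 in H_FMG, 8.86 ± 0.24 in L_FMG, 8.72 ± 0.02 in ND, 8.36 ± 0.10 in BC, 8.29 ± 0.39 in SMG, 8.21 ± 0.22 in HFD and 7.81 ± 0.16 in RMG (SD, n = 3). Neighbours in this order overlapped at every step except from ND to BC and from HFD to RMG.

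HFD was first set against ND, which asks what the fatty diet does to these genes. The HFD arrays were part of the contrast that chose the genes, so p-values and counts of members here are no independent support. Vegfa and most receptors had lower means in HFD, but none of the 9 passed the test (0 of 9, limma with Benjamini-Hochberg adjustment over 16248 genes), where 8.63% of all genes did. At an unadjusted p under 0.05 there were 4 of the 9, and 4111 of the 16248 genes. Vegfa changed by -0.50 ± 0.17 (log2 change ± SE, n = 3 against 3, adjusted p = 0.0724) and Tie1 by -0.40 ± 0.14 (adjusted p = 0.0878). In both genes all HFD arrays lay below all ND arrays, which makes 2 of 9 without overlap, against 28.7% of all genes. Kdr differed by -0.49 ± 0.19 (adjusted p = 0.104) and Flt1 by -0.36 ± 0.16 (adjusted p = 0.150). ND array 9 weighed on the receptors: it had 8.36 for Kdr and 6.82 for Flt1, against 8.91 and 8.83, and 7.43 and 7.35, on the other ND arrays. Without it Kdr (-0.66, adjusted p = 0.0378), Flt1 (-0.55, adjusted p = 0.0229) and Flt4 (-0.59, adjusted p = 0.0337) passed. Other removals moved them towards 0: without ND array 6 Flt1 was -0.25 (adjusted p = 0.357) and Flt4 -0.12 (adjusted p = 0.752), and without HFD array 6 Kdr was -0.31 (adjusted p = 0.402). After quantile normalization Kdr and Tie1 passed (adjusted p = 0.0483 and 0.0332). For the others the changes were -0.30 ± 0.20 in Flt4, -0.23 ± 0.15 in Tek, 0.14 ± 0.13 in Nrp2, 0.08 ± 0.26 in Pgf and 0.58 ± 0.30 in Angpt1.

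**Figure D2:**
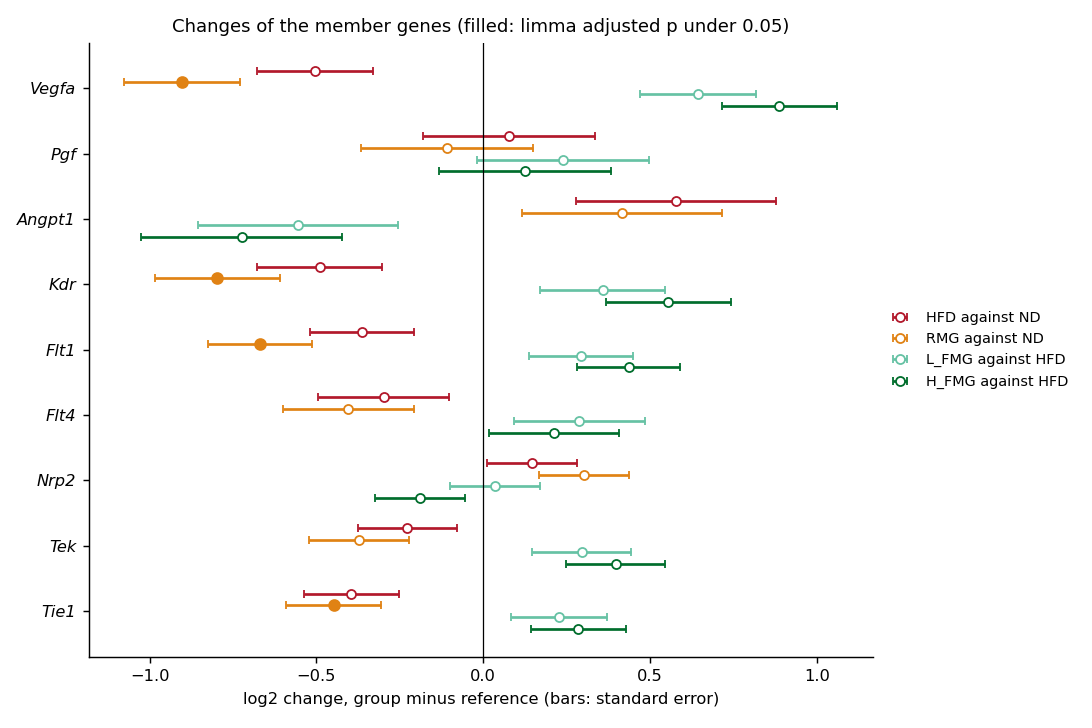
Log2 change with its standard error for each gene in 4 comparisons, group minus reference; filled points passed limma at an adjusted p under 0.05, and H_FMG against HFD is shown as a description. Vegfa, Kdr, Flt1 and Tie1 in RMG against ND are the filled points, at -0.90, -0.80, -0.67 and -0.45.

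In RMG the ligand and its receptors were lowest. Against ND, 4 of the 9 genes fell and 0 rose, where 14.8% of all genes passed. Vegfa fell by 0.90 ± 0.17, to a level 1.87-fold lower than in ND (adjusted p = 0.00135). This comparison uses the same ND arrays as the one above. Kdr, the main VEGF-A receptor, had 8.91, 8.83 and 8.36 on the ND arrays and 7.79, 7.80 and 8.12 on the RMG arrays, and fell by 0.80 ± 0.19 (adjusted p = 0.00618). Flt1, the decoy-like receptor, went from 7.43, 7.35 and 6.82 in ND to 6.55, 6.47 and 6.59 in RMG, a fall of 0.67 ± 0.16 (adjusted p = 0.00590). For Vegfa, Kdr and Flt1 no array of RMG reached the lowest of ND. These 3 passed whichever single array was left out, with adjusted p of at most 0.00942 for Vegfa, 0.0330 for Kdr and 0.0331 for Flt1.

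The Tie1 call depended on single arrays. Tie1 had 6.92, 6.90 and 7.20 in ND and 6.50, 6.51 and 6.66 in RMG, with no overlap, and fell by 0.45 ± 0.14 (adjusted p = 0.0391). The call was lost when any of RMG arrays 4, 9 or 10 or ND array 9 was left out (adjusted p from 0.0592 to 0.141), and after centring the arrays on their medians (0.120), with every probe tested (0.0511) and from the compared arrays alone (0.0535). Tek, the ANGPT1 receptor, changed by -0.37 ± 0.15 (adjusted p = 0.1004) and Flt4, the lymphatic receptor, by -0.40 ± 0.20 (adjusted p = 0.178). ND array 9 was low for both, at 7.06 against 7.73 and 7.56 for Tek, and at 5.10 against 6.04 and 5.89 for Flt4. Without that array both passed (adjusted p = 0.00609 for Tek and 0.00733 for Flt4), whereas without ND array 6 Tek was -0.23 (adjusted p = 0.335) and Flt4 -0.22 (adjusted p = 0.494). Nrp2 went the other way, 0.30 ± 0.13 (adjusted p = 0.142), its RMG arrays at 7.80, 7.80 and 7.78 above all ND arrays at 7.61, 7.47 and 7.39. In all, 5 of the 9 genes did not overlap between RMG and ND, against 29.5% of all genes.

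Angpt1 and Pgf, the other ligands, were dim and scattered. Angpt1 changed by 0.42 ± 0.30 in RMG against ND (adjusted p = 0.382) and ranged over all 21 arrays from 3.65 to 5.36, with group means between 4.17 in H_FMG and 4.97 in BC. Its neighbouring groups overlapped at every step. A second Angpt1 probe, with a mean level of 2.45 against 4.58, did not follow the first: it changed by -0.17 where the first changed by 0.58 in HFD against ND, and the correlation between the probes over 21 arrays was 0.156. Pgf changed by -0.11 ± 0.26 (adjusted p = 0.817) and lay between 3.95 and 5.36, with group means from 4.36 in SMG to 4.81 in L_FMG.

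Of the 9 members, 0 passed in BC, SMG, L_FMG or H_FMG against ND, where the shares of all genes were 0.111%, 5.83%, 0.00615% and 0.00615%. At an unadjusted p under 0.05 the members numbered 1, 3, 0 and 1, and all genes 2454, 3587, 2089 and 1359. In SMG, Vegfa changed by -0.43 ± 0.17 (adjusted p = 0.148), Kdr by -0.45 ± 0.19 (adjusted p = 0.163) and Tie1 by -0.34 ± 0.14 (adjusted p = 0.167). Without SMG array 12, which had 8.66 for Vegfa and 8.75 for Kdr, Vegfa (-0.62, adjusted p = 0.0266) and Kdr (-0.70, adjusted p = 0.0122) passed. Without SMG array 5, which was low for both, Vegfa was -0.23 (adjusted p = 0.557) and Kdr -0.31 (adjusted p = 0.504). In BC, Vegfa differed from ND by -0.36 ± 0.17 (adjusted p = 0.339), its 3 arrays below all ND arrays. H_FMG differed from ND by 0.38 ± 0.17 in Vegfa (adjusted p = 0.586), its arrays above all ND arrays, and by 0.07 ± 0.19 in Kdr. These values rest on H_FMG arrays that helped to choose the genes and are no independent support. For L_FMG against ND the Vegfa difference was 0.14 ± 0.17 (adjusted p = 0.766).

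Against HFD, the question is what each supplement did on the high-fat diet, and the 5 comparisons share the same HFD arrays. Those arrays were part of the contrast that chose the genes, so p-values and counts of members are no independent support. BC, RMG, SMG and L_FMG against HFD gave 0 of 9 members each, and 0% of all genes passed in each of the 4. At an unadjusted p under 0.05 the members numbered 0, 1, 0 and 1, and all genes 841, 458, 300 and 1407. Vegfa differed from HFD by 0.15 ± 0.17 in BC, -0.40 ± 0.17 in RMG, 0.07 ± 0.17 in SMG and 0.64 ± 0.17 in L_FMG (adjusted p = 0.454 in L_FMG). In L_FMG the arrays of Vegfa, Flt1 and Tek lay above all HFD arrays, 3 of the 9 genes where 17.4% of all genes did not overlap. The L_FMG changes were 0.29 ± 0.16 in Flt1, 0.29 ± 0.15 in Tek and 0.36 ± 0.19 in Kdr. In RMG, Vegfa and Flt1 lay below HFD without overlap and Nrp2 above, 3 of the 9 where 11% of all genes did.

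H_FMG against HFD, the contrast known when the genes were chosen, had 0.00615% of all genes past the threshold. Vegfa was 0.89 ± 0.17 higher in H_FMG, Kdr 0.56 ± 0.19, Flt1 0.44 ± 0.16, Tek 0.40 ± 0.15, Tie1 0.28 ± 0.14 and Flt4 0.21 ± 0.20, while Angpt1 was lower by 0.72 ± 0.30 and Nrp2 by 0.19 ± 0.13. The Angpt1 arrays overlapped, and the dimmer Angpt1 probe went the other way, by 0.135. Kdr had 8.59, 8.71 and 8.99 on the H_FMG arrays and 8.34, 7.85 and 8.43 on the HFD arrays. Tek had 7.45, 7.55 and 7.85 in H_FMG and 7.25, 7.03 and 7.39 in HFD. H_FMG array 8 had the highest value of all 21 arrays for Vegfa, Kdr, Flt1 and Tek. The arrays did not overlap in 5 of the 9 genes, Vegfa, Kdr, Flt1, Tek and Nrp2, where 22.1% of all genes did not. Because the genes were chosen on this contrast, the excess over that share was fixed beforehand and is no support.

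The doses of fermented grain were compared with each other and as a trend. H_FMG against L_FMG gave 0 of 9 members and 0% of all genes, with 0 members and 636 genes at an unadjusted p under 0.05. The Vegfa difference was 0.24 ± 0.17, with overlapping arrays. The trend over 0, 0.3 and 0.9% of fermented grain gave 0% of all genes (2115 unadjusted). It contains the contrast that chose the genes, so the Vegfa slope of 0.90 ± 0.19 per percent of grain is a description. L_FMG against SMG and L_FMG against BC, at an equal percentage of supplement, gave 0 of 9 and 0% (1 and 2 members, and 886 and 666 genes, unadjusted). The Vegfa differences were 0.57 ± 0.17 and 0.49 ± 0.17 (adjusted p = 0.844 and 0.999).

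Among the 6 groups on the high-fat diet, a moderated F test asked whether a gene differed anywhere. Vegfa was 1 of 8 genes that passed, 0.0492% of all genes (F = 14.5, adjusted p = 0.0399), and the 1 member of the 9. The test includes the H_FMG and HFD arrays known beforehand, so its p-values for the members are no independent support. Without H_FMG, F for Vegfa was 9.31 (adjusted p = 0.286), and 0% of all genes and 0 of 9 members passed, with 1304 genes and 3 members at an unadjusted p under 0.05. The call was also lost on centring the arrays (adjusted p = 0.0547) and without the intensity trend (0.0512), and in 12 of 18 fits with 1 array left out, where the adjusted p ran from 0.00304, without SMG array 12, to 0.159, without RMG array 4. Flt1 (F = 5.40, adjusted p = 0.120) and Kdr (F = 5.17, adjusted p = 0.133) did not pass.

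After these values were seen, the fermented grain groups were also set against RMG, the group at the other end of the order. Between H_FMG and RMG 4 of the 9 genes passed, all higher in H_FMG, where 7.19% of all genes did. Vegfa was 1.29 ± 0.17 higher, or 2.44-fold (adjusted p = 0.00301), Flt1 0.74 ± 0.16 (adjusted p = 0.0110), Kdr 0.86 ± 0.19 (adjusted p = 0.0125) and Tek 0.54 ± 0.15 (adjusted p = 0.0324). Between L_FMG and RMG 1 member passed, Vegfa, at 1.04 ± 0.17 (adjusted p = 0.0267), where 0.314% of all genes did. The H_FMG arrays were among those that chose the genes, and these pairs were picked for their place in the order, so their p-values are no independent support. Vegfa in H_FMG against RMG passed whichever array was left out, whereas Kdr and Flt1 lost the call without RMG array 4 or H_FMG array 8 (adjusted p from 0.0515 to 0.106), as Kdr did without RMG array 9 (0.0503). Tek lost it without any of RMG arrays 4, 9 and 10 and H_FMG arrays 6 and 8 (0.0519 to 0.210), and after centring (0.0719). For L_FMG the Vegfa call was lost without RMG array 4 or 9 or L_FMG array 8 or 10 (0.0799 to 0.148).

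**Figure D3:**
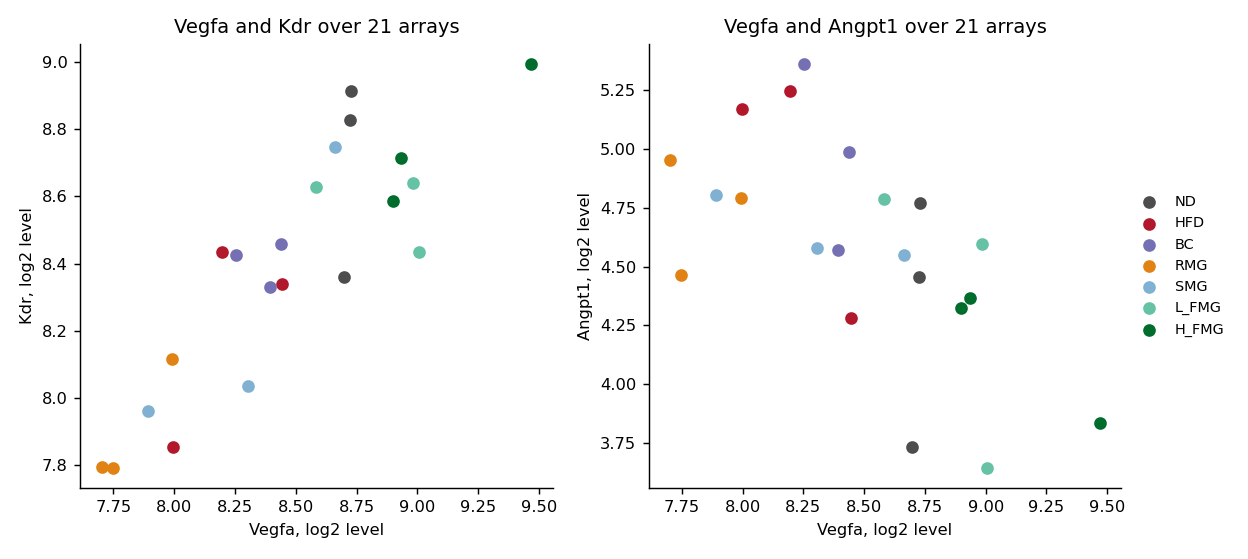
Log2 level of Vegfa against Kdr and against Angpt1, 1 point per array, coloured by group. Kdr follows Vegfa over the 21 arrays (r = 0.867), and Angpt1 on its brighter probe runs the other way (r = -0.63). The arrays include those of H_FMG and HFD, whose contrast chose the genes.

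Across the 21 arrays Kdr, Flt1 and Tek followed Vegfa and each other, and Tie1 did so less closely. These correlations describe arrays of 7 groups, and every pair shares the same RNA and array. The arrays include those of H_FMG and HFD, whose contrast chose the genes. Joint movement of members, here and with the lists below, is therefore no independent support. Vegfa and Kdr had r = 0.867 (rho = 0.829), 0.816 without H_FMG array 8 and RMG array 9, and 0.663 once group means were removed. With Flt1 the value was 0.854, with Tek 0.793, with Tie1 0.598 and with Flt4 0.384. Once group means were removed these were 0.595, 0.522, 0.321 and 0.0499. Kdr and Flt1 had r = 0.936, and Flt1 and Tek 0.902. Tie1 had r = 0.674 with Kdr, 0.577 with Flt1 and 0.473 with Tek, and 0.379, 0.167 and 0.195 within groups. Flt4, the lymphatic receptor, had a higher r with Pgf (0.692) than with Vegfa. Nrp2 (r = -0.609) and Angpt1 on its brighter probe (r = -0.63) ran against Vegfa, and Angpt1 and Nrp2 had r = 0.56 with each other.

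The genes most like Vegfa over the 21 arrays, by r, were Prex2 (0.939), Id1 (0.936), Rapgef3 (0.934), Hspa12b (0.931) and Rbp7 (0.929). Within groups their r with Vegfa was between 0.752 and 0.872. Prex2 encodes a regulator of the GTPase Rac, Id1 an inhibitor of DNA binding downstream of BMP signals, Rapgef3 an exchange factor activated by cyclic AMP, and Rbp7 a retinol-binding protein. Those most like Kdr were Adgrl4 (0.964), Ptprb (0.962), Prkce (0.955), Palmd (0.955) and Clic5 (0.953). Adgrl4 is an adhesion receptor of endothelium, Ptprb the phosphatase that acts on TEK, and Prkce a protein kinase C. For Vegfa, 38 genes had a higher r than Kdr.

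Other growth factors of the family were thinly covered, with 5 of 12 listed genes measured. In HFD against ND 0 of the 5 passed, and in RMG against ND 1 fell, Vegfb, a FLT1 ligand linked to fatty acid uptake, by 0.61 ± 0.17 (adjusted p = 0.0200). Vegfb was -0.39 ± 0.17 in HFD against ND (adjusted p = 0.158) and 0.48 ± 0.17 in H_FMG against RMG (adjusted p = 0.0955). Of 12 measured regulators of Vegfa transcription, 0 passed in HFD against ND, where 8.63% of all genes did, and 1 fell in RMG against ND, where 14.8% passed. It was Pparg, the master regulator of adipocytes, which fell by 0.55 ± 0.12 (adjusted p = 0.00375). Pparg rose in H_FMG against RMG by 0.51 ± 0.12 (adjusted p = 0.0179), as did Epas1 (HIF-2α), by 0.53 ± 0.15 (adjusted p = 0.0336). That pair was picked after the values were seen, for its place in the order. Its p-values and counts, here and in the lists below, are therefore no independent support. Hif1a changed by 0.16 ± 0.10 in HFD against ND and 0.19 ± 0.10 in RMG against ND, and Ppargc1a by 0.03 ± 0.27 and -0.06 ± 0.27, none past the test.

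Hypoxia response genes moved both ways. Of 9 measured, 2 rose and 1 fell in HFD against ND, and 3 rose and 1 fell in RMG against ND, beside 8.63% and 14.8% of all genes. In RMG the glucose transporter Slc2a1 rose by 0.68 ± 0.15, the collagen hydroxylase P4ha1 by 0.49 ± 0.11 and the collagen crosslinking enzyme Lox by 0.98 ± 0.23, while the glycolytic regulator Pfkfb3 fell by 0.75 ± 0.16 (adjusted p from 0.00349 to 0.00663). The median change of the list was 0.115, beside -0.0374 for all genes. On ND arrays 6, 8 and 9 the listed genes deviated on average by 0.0279, 0.0174 and -0.344 from their means over all arrays. On RMG arrays 4, 9 and 10 they deviated by 0.0366, -0.0153 and 0.05, so of the ND arrays only array 9 lay outside the RMG range. Slc2a1 and Pfkfb3 thus went in opposite directions in the fat in which Vegfa was lowest, and in H_FMG against RMG each changed the other way, by -0.51 ± 0.15 and 0.87 ± 0.16 (adjusted p = 0.0435 and 0.00738).

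Downstream of the receptors, 17 of 22 listed signalling and feedback genes were measured. In HFD against ND 2 rose and 1 fell: the calcineurin feedback gene Rcan1 (0.59 ± 0.13) and the kinase gene Akt1 (0.37 ± 0.10) were higher, and the kinase gene Src (-0.35 ± 0.10) lower. In RMG against ND 4 rose and 3 fell. The shares of all genes were 8.63% and 14.8%. Nos3, the endothelial nitric oxide synthase, fell by 0.61 ± 0.12, and Rcan1 and Spred1, an inhibitor of RAS signalling, rose by 0.76 ± 0.13 and 0.83 ± 0.18 (adjusted p = 0.00123, 0.000567 and 0.00399). Between H_FMG and RMG, the pair picked after the values were seen, 4 were higher and 2 lower in H_FMG, where 7.19% of all genes passed. Among the higher were Nos3 by 0.60 ± 0.12 and Ptprb by 0.96 ± 0.18 (adjusted p = 0.00787 and 0.00754). The list's median was -0.170, -0.0303 and -0.0102 in these comparisons, beside -0.0407, -0.0374 and 0.0101 for all genes.

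Sprouting and Notch genes, which select and restrain tip cells under VEGF, had 12 of 14 members measured. In HFD against ND 1 rose and 1 fell, where 8.63% of all genes passed, and in RMG against ND 1 rose and 4 fell, where 14.8% did. The list's median was -0.208 and -0.293, beside -0.0407 and -0.0374 for all genes. Notch4, a Notch receptor of endothelium, fell in both, by 0.43 ± 0.11 and 0.47 ± 0.11 (adjusted p = 0.0153 and 0.00535), and Adgrl4 and Notch1 fell in RMG by 0.69 ± 0.16 and 0.45 ± 0.13 (adjusted p = 0.00623 and 0.0246). Cxcr4, a chemokine receptor that leukocytes also carry, rose in both, by 0.71 ± 0.20 and 0.87 ± 0.20. In H_FMG against RMG, where 7.19% of all genes passed, 4 were higher and 0 lower, led by Dll4, the Notch ligand of tip cells (0.69 ± 0.14, adjusted p = 0.00992). As above, that pair was picked for its place in the order, so these values are no independent support. Of 15 measured inhibitors of angiogenesis and semaphorins, 2 rose in HFD against ND, Thbs2, an antiangiogenic matrix protein gene, by 0.94 ± 0.10 (adjusted p = 6.36e-05) and Timp2, a metalloproteinase inhibitor gene, by 0.54 ± 0.14 (adjusted p = 0.0169). In RMG against ND both rose, by 1.19 ± 0.10 and 0.64 ± 0.14, and Timp3, whose protein blocks VEGF-A binding to KDR, fell by 0.71 ± 0.20 (adjusted p = 0.0223).

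**Figure D4:**
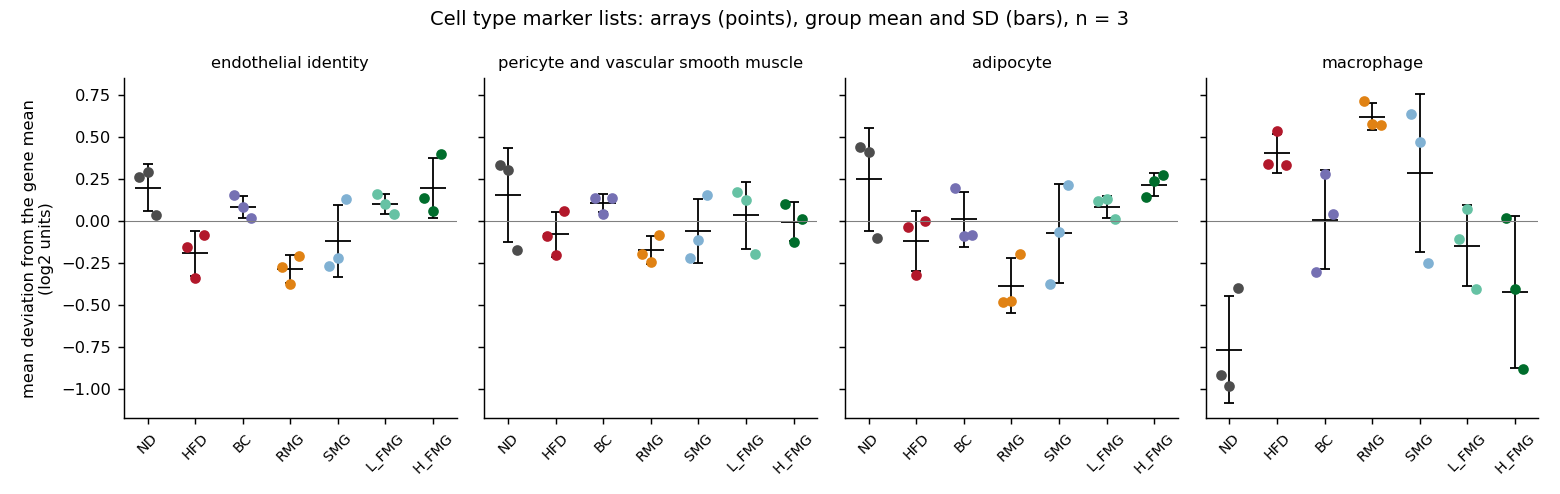
Mean deviation of marker genes from their own mean over the 21 arrays, in log2 units, for 4 lists; points are arrays, bars the group mean and SD (n = 3). Endothelial and adipocyte markers are lowest in RMG, at -0.28 and -0.38, where macrophage markers are highest, at 0.62.

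Markers of several cell types moved with the vascular receptors. In bulk fat, fewer cells of a type and less RNA per cell cannot be told apart. Of 17 measured endothelial markers, which hold none of the 9 genes, 6 fell and 0 rose in HFD against ND and 10 fell and 0 rose in RMG against ND. The shares of all genes that passed were 8.63% and 14.8%. Vwf, which encodes the clotting protein of endothelial granules, fell by 0.71 ± 0.12 and 0.73 ± 0.12 (adjusted p = 0.00309 and 0.000409), and Gpihbp1, which anchors lipoprotein lipase on capillaries, by 0.58 ± 0.14 and 0.77 ± 0.14 (adjusted p = 0.0155 and 0.00105). The list's median was -0.341 and -0.453, beside -0.0407 and -0.0374 for all genes. Between H_FMG and RMG 7 of the 17 were higher and 0 lower in H_FMG, where 7.19% of all genes passed. As that pair was picked for its place in the order, the count is no independent support. The mean deviation of the list ran from -0.373 to -0.204 on the RMG arrays, from -0.337 to -0.0809 in HFD, from 0.0391 to 0.296 in ND and from 0.061 to 0.399 in H_FMG. Over the 21 arrays its r was 0.947 with Kdr, 0.929 with Flt1 and 0.848 with Tek and with Vegfa. The adipocyte list was as close to Kdr, Flt1 and Tek, at 0.949, 0.934 and 0.868. Tie1 had 0.771 with the endothelial list and 0.629 with the adipocyte list.

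Beside the counts in this paragraph, 8.63% of all genes passed in HFD against ND and 14.8% in RMG against ND. Adipocyte markers, 7 of 14 listed, fell in 2 genes in HFD and 4 in RMG against ND, among them Pck1, whose enzyme supplies glycerol for triglyceride, by 1.07 ± 0.28 and 1.68 ± 0.28 (adjusted p = 0.0238 and 0.000563). Their mean deviation was -0.482 to -0.194 in RMG, -0.321 to 0.0043 in HFD, -0.101 to 0.442 in ND and 0.144 to 0.275 in H_FMG. Of 13 measured macrophage markers 12 rose in each of HFD and RMG against ND, with medians of 1.05 and 1.25, and their mean deviation lay between -0.977 and -0.397 in ND, 0.338 and 0.538 in HFD, and 0.575 and 0.717 in RMG. Vegfa had r = 0.809 with the adipocyte list and -0.806 with the macrophage list, and Nrp2 had 0.673 with the macrophage list. Of 9 measured fibroblast and progenitor markers 4 rose in HFD and 5 in RMG against ND, Col1a1, a collagen gene, by 0.66 ± 0.17 and 1.07 ± 0.17 (adjusted p = 0.0184 and 0.000396). Their mean deviation was -0.565 to -0.267 in ND, 0.114 to 0.261 in HFD, 0.297 to 0.374 in RMG and -0.636 to -0.097 in H_FMG, and r with Vegfa was -0.819 (-0.675 within groups). Of 7 mural cell markers 2 fell in HFD and 3 in RMG against ND, and Myh11, a smooth muscle myosin gene, fell by 0.93 ± 0.21 and 1.12 ± 0.21 (adjusted p = 0.00897 and 0.00108). The lymphatic list had 4 measured genes. Of these Pdpn, which fibroblasts also express, rose in both, by 0.50 ± 0.14 and 0.74 ± 0.14 (adjusted p = 0.0295 and 0.00128). Flt4 had r = 0.664 with that list, beside 0.777 with the mural cell list, 0.69 with the adipocyte list and 0.647 with the endothelial list. Mesothelial markers passed in 0 of 6 genes in both comparisons, and duct markers in 1 of 7 in HFD against ND, Defb20, which fell by 0.76 ± 0.18 (adjusted p = 0.0144), and 0 of 7 in RMG against ND. The part that cell types play in the changes of the 9 genes was not tested.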

How the data were processed

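The deposited values were log2 levels per probe for 21 arrays of the fat pad. The authors' summarisation and normalization, and the base of the log, are unstated in these sources; base 2 was taken from the range of the values (0.844 to 12.7). Per the labels, RNA came from a Trizol extraction and was labelled with biotin for whole-transcript GeneChips. Of 24291 complete probes 17067 had 1 symbol in the platform annotation, 1139 several and 6085 none. The probe with the highest mean stood for its gene, which gave 16248 genes, and values were not normalized again.

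All genes were fitted in limma 3.58.1 (R 4.3.3) with a coefficient for each group, so that the groups shared 1 estimate of the spread, and with an intensity trend. Two-sided p-values were adjusted over all genes of a comparison (Benjamini-Hochberg, threshold 0.05). The script was tested on simulated data. No batch was named, and the number of arrays limits the precision.

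The members, 14 gene lists and comparisons were chosen with earlier results of these data known. Every member is named. From each list the rule took up to 4 called genes with the smallest p, else those with the smallest p in HFD against ND, with Vegfb, Hif1a, Epas1 and Ppargc1a, and the 5 genes with the highest r with Vegfa or Kdr; the text gives a selection. Of 196 list genes 140 were measured. Alternatives were quantile normalization, median centring, a filter on dim genes, every probe or their mean, no trend, array weights, the compared arrays alone, each array left out and a block for the title number.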

Additional observations from a re-analysis of the deposited data

Results flagged for a closer look

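H_FMG and RMG were both compared with the same HFD and ND arrays, so the difference between their effects is the difference between the groups themselves. It passed limma with Benjamini-Hochberg adjustment in 4 of the 9 genes, where 7.19% of all genes passed. The comparison was added after the values were seen. The genes had been chosen with the H_FMG arrays known and the groups for their place at the ends of the order, so these p-values are no independent evidence. Vegfa was higher in H_FMG by 1.286 ± 0.173 (adjusted p = 0.00301), Kdr by 0.8622 ± 0.1871 (adjusted p = 0.0125), Flt1 by 0.7406 ± 0.1557 (adjusted p = 0.0110) and Tek by 0.5415 ± 0.1489 (adjusted p = 0.0324), each with all 3 H_FMG arrays above all 3 RMG arrays. How many of all genes had arrays without overlap in this pair was not counted. With 1 array left out, Kdr, Flt1 and Tek lost the call in 3, 2 and 5 of 6 fits. The effect of L_FMG differed from that of RMG in Vegfa, by 1.043 ± 0.173 (adjusted p = 0.0267), where 0.314% of all genes passed. That call was lost in 4 of 6 such fits. No array of a group of 3 was tested for standing apart.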

How the results depend on the processing

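Over 31 settings, 2538 values of the 9 genes were compared, 163 of them called in the main fit. Of these 163, 0 changed sign and 39 lost the call. Of the 2375 not called, 38 gained the call and 95 changed sign. The F values among them cannot be negative, so they could not change sign. Counts for H_FMG against HFD and the dose trend are descriptions, since that contrast chose the genes. Other comparisons with HFD or H_FMG share arrays with it, so their counts are no independent support. In HFD against ND the count of members past the threshold was 2 after quantile normalization and 4 with array weights, against 0, and 0 to 3 with 1 array left out. All genes past it numbered 1144 after quantile normalization and 1362 without ND array 9, where 3 members passed. Array weights also gave 1 in H_FMG against HFD, 4 in SMG against ND, 4 in L_FMG against RMG, 1 in the dose trend and 4 in the F test. Calls over all genes rose too with array weights, to 566, 2913, 948, 222 and 1436 genes there and 2432 in HFD against ND, from 1, 948, 51, 0, 8 and 1403. With 1 array left out the count ran from 0 to 1 in H_FMG against HFD and in the trend, 0 to 2 in SMG against ND, 0 to 1 in L_FMG against RMG, 1 to 4 in H_FMG against RMG, 3 to 5 in RMG against ND and 0 to 3 in the F test. Calls over all genes moved too. Without H_FMG array 3 they were 257 in H_FMG against HFD and 89 in the trend. Without SMG array 12 they were 1563 in SMG against ND and 657 in the F test. In H_FMG against RMG they were 136 without RMG array 4 and 32 without H_FMG array 8, from 1169, with 1 member in each. L_FMG against RMG had 2 with dim genes left out and 4 from the compared arrays alone, where 262 and 717 genes passed, from 51. The F test had 0 after centring, without the trend, with the replicate block and without H_FMG, and in each of these 0 of all genes passed. F for Vegfa was 13.41 after centring, 13.43 without the trend, 14.36 with the block, 9.312 without H_FMG, and 11.52 to 19.16 with 1 array left out.

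The 18 same-number pairs of arrays had correlations of their deviations from -0.302 to 0.178, and the consensus correlation was -0.0876. The labels do not say whether a number marks a shared litter, batch or day, and these values cannot exclude it. With the replicate block Tie1 in RMG against ND was -0.4205 (adjusted p = 0.0624). Pgf and Angpt1 were not tested once dim genes were left out. On the gene's own strand only, AGGAAG was found in 1 of 8 promoters. Centring moved the median change of all genes in HFD against ND from -0.0407 to 0.0642. The causes of these differences were not tested.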

Other observations

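Other pairs of supplemented groups, added after the values were seen, give the remaining places in the order. Vegfa differed by 0.55 ± 0.17 between BC and RMG (adjusted p = 0.279) and by 0.47 ± 0.17 between SMG and RMG, and was 0.74 ± 0.17 higher in H_FMG than in BC and 0.81 ± 0.17 higher than in SMG (adjusted p = 0.316 and 0.152), none past limma's threshold. The H_FMG arrays were among those that chose the genes, so the values with H_FMG are no independent support. Flt4, the lymphatic receptor, had its highest mean in BC, at 5.74 ± 0.26, and differed from RMG by 0.47 ± 0.20 (adjusted p = 0.392), with all BC arrays above all RMG arrays.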
